A study of Mus musculus with 4 samples.

Results

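The cardiomyocytes described here were those caught in G2 or mitosis in the ventricles of E14.5 mouse embryos. They were chosen by rule from the barcodes of 4 single-cell RNA-seq libraries. A barcode had 1000 to 7000 genes and at most 15% mitochondrial UMIs (unique molecular identifiers, each one captured transcript). Tnnt2, Actc1, Tnnc1 and Ttn, genes of the sarcomere, made up at least 1% of its UMIs, and the endothelial genes Pecam1, Cdh5, Emcn and Egfl7 gave at most 1 UMI together. Ube2c, Ccnb1, Cenpf and Hmmr, 4 genes of G2 and mitosis, gave at least 5 UMIs together and more than Rrm2, Esco2, Pclaf and Hist1h1b, 4 genes of S phase. The rule found 4528 cells among 18046 cardiomyocytes and 45551 barcodes. Because the cells were chosen on these genes, their levels in the chosen cells are given as a description only. They were left out of the fits against S phase and non-cycling cells. They remained in the tables of the other fits but are left out of the counts and medians of levels over the mitotic gene lists below.

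The controls carried Tie2Cre with 1 floxed and 1 wild-type allele of Ets1 (Tie2Cre;Ets1 fl/+), and the Ets1 eKO embryos carried Tie2Cre with both alleles floxed (Tie2Cre;Ets1 fl/fl). Both groups therefore expressed Cre, which the Tie2 promoter drives in endothelial cells and in blood cells, so that the cardiomyocytes themselves were not the target of the deletion. Each group held 2 libraries, each library pooled the ventricles of 3 embryos, and the study used embryos of both sexes without typing their sex. The 10x Genomics 3' chemistry counts the 3' ends of transcripts, and a level is given here in CPM, the UMIs of a gene per 1000000 UMIs of the cells summed. The question addressed was whether loss of endothelial Ets1, in a model of ventricular non-compaction, changes the cycling cardiomyocytes of the compact and trabecular myocardium.

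In the fetal heart, cardiomyocytes still divide, and the compact wall grows mainly through their division, whereas trabecular cardiomyocytes divide less and mature earlier. A cell that leaves S phase accumulates cyclin B, which activates the kinase Cdk1 and drives entry into mitosis. The anaphase-promoting complex, with its activator Cdc20 and its ubiquitin-conjugating enzyme Ube2c, then degrades cyclin B and lets the chromosomes part, and the contractile ring, guided by Ect2, Racgap1 and anillin, splits the cell. Many of these genes are switched on together late in the cycle through CCAAT boxes, bound by NF-Y, and through the cell cycle genes homology region (CHR), whose core reads TTTGAA.

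The stretches of 120 bases that precede the annotated start of the 4 genes of the rule, and of Cdc20 and Cdk1, are shown because 4 of these genes define the cells and the others are textbook genes of the same phase. They come from RefSeq (GRCm38.p6), are written 5' to 3' on the strand of the gene, and have CCAAT and TTTGAA in capitals, read on both strands (ATTGG and TTCAAA on the other strand).
Ube2c, chr2:164769809-164769928, plus strand: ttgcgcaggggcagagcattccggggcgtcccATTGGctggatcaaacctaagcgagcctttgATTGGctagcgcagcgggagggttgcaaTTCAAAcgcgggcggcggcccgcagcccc
Ccnb1, chr13:100786487-100786606, minus strand: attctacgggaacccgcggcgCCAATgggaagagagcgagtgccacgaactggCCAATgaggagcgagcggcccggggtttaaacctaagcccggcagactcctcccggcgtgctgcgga
Cenpf, chr1:189688087-189688206, minus strand: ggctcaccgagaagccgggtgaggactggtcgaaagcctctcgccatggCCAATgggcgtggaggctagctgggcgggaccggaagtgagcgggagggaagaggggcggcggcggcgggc
Hmmr, chr11:40733438-40733557, minus strand: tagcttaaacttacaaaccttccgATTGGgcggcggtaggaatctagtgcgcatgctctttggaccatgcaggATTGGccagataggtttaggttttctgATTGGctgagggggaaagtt
Cdc20, chr4:118437344-118437463, minus strand: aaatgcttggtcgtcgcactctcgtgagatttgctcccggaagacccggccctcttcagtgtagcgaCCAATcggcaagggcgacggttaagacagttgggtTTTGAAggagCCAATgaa
Cdk1, chr10:69352913-69353032, minus strand: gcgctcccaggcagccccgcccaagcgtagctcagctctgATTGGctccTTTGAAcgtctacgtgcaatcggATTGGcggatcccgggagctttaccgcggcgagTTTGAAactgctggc

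Each of the 6 stretches held at least 1 CCAAT, with 3 in Hmmr, 2 in Ube2c, Ccnb1, Cdc20 and Cdk1, and 1 in Cenpf. TTTGAA was present 2 times in Cdk1 and 1 time in Ube2c and Cdc20. In windows of 300 bases, 250 before and 50 after the start, TTTGAA also occurred in Cenpf and Hmmr but not in Ccnb1. Of the 116 genes of the mitotic lists used below, 95 matched the promoter table. In these windows, 66.3% of the matched genes held CCAAT, 56.8% held TTTGAA and 47.4% held both. Over all 27025 genes of the table, the shares were 37.9%, 18.1% and 7.12%. For the genes of DNA replication (25 of 30 matched), the shares with CCAAT and TTTGAA were 60% and 12%, and for sarcomere genes (21 of 26 matched) they were 33.3% and 9.52%. A match is a description of the letters and not a measured binding site.

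The control libraries held 12641 and 7949 barcodes and 124140739 and 76931208 UMIs, and the Ets1 eKO libraries held 10010 and 14951 barcodes and 95131419 and 102872196 UMIs. The rule found 1335 and 608 cells in controls against 968 and 1617 cells in Ets1 eKO ventricles. The second Ets1 eKO library stood apart from the other 3 libraries in depth. Its cells in G2 and mitosis had a median of 10295 UMIs, against 14635 to 15670 UMIs in the other libraries. Libraries shared 19 to 47 barcodes pairwise, and 1 barcode was shared between cells chosen in 2 libraries. The sex of the embryos also moved with the libraries. In control replicate 1, 1188 of the chosen cells had UMIs of Y-linked genes without Xist and none had Xist alone, whereas in Ets1 eKO replicate 2, 1387 had Xist alone and 2 had Y-linked UMIs alone. The other libraries held both kinds, 266 and 249 cells in control replicate 2 and 456 and 339 cells in Ets1 eKO replicate 1.

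The name was checked on genes of G2 and mitosis that the rule did not use. Cdc20 stood at 162 and 142 CPM in the controls against 138 and 165 in Ets1 eKO ventricles, and at 1.26 to 2.66 in non-cycling cardiomyocytes, defined by at most 1 UMI of the 4 mitotic and at most 1 UMI of the 4 S phase genes. Plk1, a kinase that acts from mitotic entry to cytokinesis, stood at 86, 90.2, 83.9 and 83.8 CPM and at most at 0.853 in non-cycling cells. Cenpa, the centromeric histone loaded after mitosis and transcribed in G2, ranged from 401 to 467. Mki67, a coat protein of mitotic chromosomes, ranged from 249 to 355, and Top2a, which untangles sister chromatids, from 441 to 532. The summed level of 12 further endothelial genes was 22.1 to 44.9 CPM in the chosen cells and 28.8 to 54.9 in non-cycling cardiomyocytes, 7 immune genes summed to 21.0 to 43.5, 6 epicardial genes to 49.0 to 78.2 and 10 fibroblast genes to 138 to 224, and none of these genes was at 0 in all 4 libraries. The 6 erythroid genes summed to 1698, 53.6, 1675 and 7464 CPM in the chosen cells and to 1122, 62.4, 1164 and 1822 in non-cycling cardiomyocytes, lowest in control replicate 2 and highest in Ets1 eKO replicate 2 in both. Ets1 itself stood at 8.25 and 9.56 CPM in controls against 9.96 and 9.20 in Ets1 eKO cells.

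Most cells lay well inside the threshold of 5 UMIs. The median sum of the 4 mitotic genes was 28 and 24 UMIs in controls against 25 and 20 UMIs in Ets1 eKO ventricles. Just inside the threshold, with 5 UMIs, were 79 and 33 control cells and 57 and 107 Ets1 eKO cells, and just outside it, with 4 UMIs, were 74 and 52 control and 65 and 119 Ets1 eKO cardiomyocytes. A further 535 and 265 control and 451 and 544 Ets1 eKO cardiomyocytes reached the threshold but had as many or more UMIs of the S phase genes. Ube2c, with Cenpf, gave most of the UMIs of the rule. Ube2c made up 41.3% to 51.9% of them, Cenpf 28.0% to 36.7%, Hmmr 11.5% to 13.4% and Ccnb1 8.54% to 9.64%.

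The balance between these genes is given as a description of the chosen cells. In Ets1 eKO replicate 2, 72.0% of the cells had more UMIs of Ube2c and Ccnb1 than of Cenpf and Hmmr, compared with 58.1% and 54.1% in controls, and 49.2% in Ets1 eKO replicate 1. The ratio of the summed UMIs, Ube2c and Ccnb1 over Cenpf and Hmmr, was 1.11 and 1.07 in controls, 0.996 and 1.53 in the 2 Ets1 eKO libraries. In cells of other types in G2 and mitosis the same ratio was 1.08, 1.03, 0.847 and 1.28, so that Ets1 eKO replicate 2 was the highest and Ets1 eKO replicate 1 the lowest in both.

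The share of cardiomyocytes in G2 and mitosis was compared after each cell was thinned to 4000 UMIs, which removes the difference in depth and leaves out 187 and 83 control and 124 and 516 Ets1 eKO cardiomyocytes. The share was 18.5% (930 of 5021 cells, 95% exact binomial interval 17.5% to 19.6%) and 14.8% (394 of 2654, 13.5% to 16.3%) in controls. It was 17.4% (655 of 3767, 16.2% to 18.6%) and 20.9% (1191 of 5694, 19.9% to 22%) in Ets1 eKO ventricles. The intervals cover counting error only. The groups overlapped, since Ets1 eKO replicate 1 lay between the controls. The mean was 16.7% ± 2.60 (SD, n = 2) in controls against 19.2% ± 2.50 (SD, n = 2) in Ets1 eKO ventricles, a difference of 2.47 percentage points (two-sided exact permutation test over libraries, p = 0.667, where the smallest p that 2 against 2 libraries can give is 0.333). At 8000 UMIs, the shares were 24.3% and 20.6% in controls against 23.6% and 31.4% in Ets1 eKO ventricles, a difference of 5.12 points, but that depth kept 53.2% of the cardiomyocytes of Ets1 eKO replicate 2 and 86.3% to 88.9% of those of the other libraries. Without thinning, the shares were 25.6% and 22.2% in controls against 24.9% and 26.0% in Ets1 eKO ventricles. With control replicate 1 or 2 left out, the difference was 4.31 or 0.630 points, and with Ets1 eKO replicate 1 or 2 left out it was 4.23 or 0.704 points. In other cell types at 4000 UMIs, the share was 7.3% and 7.6% in controls against 8.4% and 13.0% in Ets1 eKO ventricles. Ets1 eKO replicate 2 was thus the highest there as well.

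**Figure D1:**
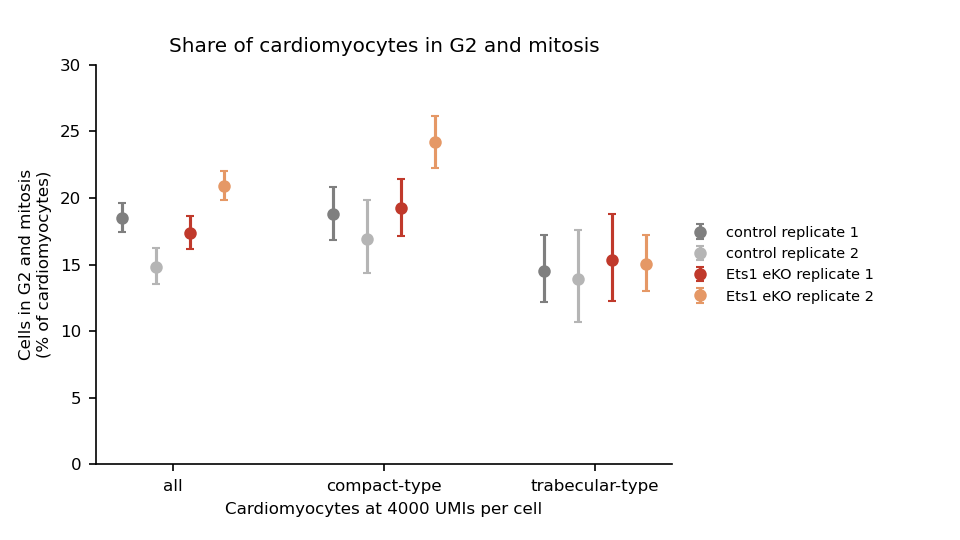
Share of cardiomyocytes in G2 and mitosis (% of cardiomyocytes, y axis) after thinning to 4000 UMIs per cell, for all, compact-type and trabecular-type cardiomyocytes (x axis). Each point is 1 library with its 95% exact binomial interval, and the share of compact-type cells was above that of trabecular-type cells in 4 of 4 libraries, with the highest value, 24.2%, in Ets1 eKO replicate 2.

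Cardiomyocytes were assigned to the zones of the wall by 2 genes read at 4000 UMIs. Compact-type cells had at least 4 UMIs of Tnnt1, a slow skeletal troponin T of the compact wall, and fewer than 5 of Nppa, and trabecular-type cells had at least 5 UMIs of Nppa, the atrial natriuretic peptide of the trabeculae, and fewer than 4 of Tnnt1. In other cell types, at most 0.684% of cells reached the minimum of Nppa and at most 0.124% that of Tnnt1, against 14.2% to 23% and 29.1% to 36.0% of cardiomyocytes. Of compact-type cells, 18.8% (289 of 1537) and 17.0% (127 of 749) were in G2 and mitosis in controls against 19.2% (253 of 1316) and 24.2% (462 of 1910) in Ets1 eKO ventricles. The Ets1 eKO libraries were both above the controls, by a mean of 3.83 points (exact permutation p = 0.333, the smallest possible). The separation was lost at 2000 UMIs, where the shares were 12.5% and 9.88% in controls against 11.4% and 13.7% in Ets1 eKO ventricles (difference 1.39 points, exact permutation p = 0.667), and with a minimum of 10 marker UMIs (2.97 points, exact permutation p = 0.667). It was 7.43 points at 8000 UMIs, a depth that left 1001 compact-type cells in Ets1 eKO replicate 2 in place of 1910. At 4000 UMIs, the difference was 1.35 points with Ets1 eKO replicate 2 left out and 6.31 points with replicate 1 left out.

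Of trabecular-type cells, 14.5% (115 of 791) and 13.9% (57 of 410) were in G2 and mitosis in controls against 15.3% (77 of 502) and 15.1% (176 of 1169) in Ets1 eKO ventricles. The mean difference was 0.977 points (exact permutation p = 0.333, the smallest possible), and without thinning it had the opposite sign, -1.855 points. The separation was lost with doublet scores removed (0.250 points, exact permutation p = 0.667), at 8000 UMIs (2.63 points, p = 0.667) and with a minimum of 10 marker UMIs (0.758 points, p = 1), and the difference was 1.98 points at 2000 UMIs. Within each library, the compact-type share exceeded the trabecular-type share, by 4.26 and 3.05 points in controls against 3.89 and 9.13 points in Ets1 eKO ventricles. The mean difference was 5.08 ± 2.75 points (SD, n = 4 libraries), with the compact-type share higher in 4 of 4 libraries. It is given without a test, since Nppa, which splits the zones, was itself lower in G2 and mitosis than in non-cycling cells (18.1 against 30.5 UMIs per cell). Tnnt1, which also splits the zones, was higher (18.3 against 11.8 UMIs per cell, log2 fold change in CPM 0.0874 to 0.180 over 9 alternatives). A different rate of division in the zones and shifted levels of Nppa and Tnnt1 in dividing cells cannot be told apart here. The share in cells of neither zone type was 19.4%, 14.2%, 16.6% and 21.0%.

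Cells in G2 and mitosis held more UMIs than non-cycling cardiomyocytes. When both classes were called on thinned counts, so that the call could not follow depth, the cells in G2 and mitosis had medians of 16716 and 16607 UMIs in controls against 16143 and 10757 UMIs in Ets1 eKO ventricles. Non-cycling cardiomyocytes had medians of 11974 and 12679 UMIs in controls against 12266 and 7711 UMIs in Ets1 eKO ventricles. The ratio was 1.40, 1.31, 1.32 and 1.40, with a mean of 1.35 ± 0.0478 (SD, n = 4 libraries), and was above 1 in 4 of 4 libraries (exact sign permutation p = 0.125, the smallest possible). It was 1.353 in controls against 1.355 in Ets1 eKO ventricles (exact permutation p = 1). S phase cardiomyocytes had a mean ratio of 1.39 to non-cycling cells. Barcodes with the highest simulated-doublet scores made up 9.81% to 14.2% of the cells in G2 and mitosis and 5.74% to 9.44% of all cardiomyocytes. Without them, the ratio was 1.35, 1.28, 1.28 and 1.34, with a mean of 1.31 ± 0.0369 (SD, n = 4 libraries), an alternative chosen after seeing the data.

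Compared with S phase cardiomyocytes, the cells in G2 and mitosis had higher levels of most spindle genes and lower levels of the replication genes. S phase cardiomyocytes had at least 5 UMIs of the 4 S phase genes and more of them than of the mitotic genes. This contrast is the one the rule draws, so the calls below follow from how the cells were chosen. They describe the classes and are no independent test. A quasi-likelihood fit in edgeR over 13658 genes, without the genes of the rule, called 2886 genes higher (21.1%) and 3335 lower (24.4%) at an adjusted p of at most 0.05. Among the genes of the mitotic lists that were higher in G2 and mitosis, Cdkn3, Cenpa and Cdc20 had the largest log2 fold changes. Cdkn3, a phosphatase of Cdk1, stood at 96.4, 83.5, 99.3 and 97.8 CPM in G2 and mitosis and at 13.5, 14.5, 15.8 and 18.8 in S phase, a log2 fold change of 2.57 ± 0.06 (SE). Cenpa rose by 2.54, Cdc20 by 2.36, Knstrn, a kinetochore protein of the anaphase spindle, by 1.89, Ccnb2 by 1.79, Plk1 by 1.55 and Aurka by 1.23. No library overlapped between the classes for these genes. Beyond the lists, C330021F23Rik had the largest log2 fold change, 3.6, and Ccna1, the germ line cyclin A, followed the pattern at low levels of 0.717 to 1.08 CPM.

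The mitotic lists did not move as a block against S phase. Of 24 spindle genes in the fit, 20 were higher and 1 was lower, and of 16 cytokinesis genes, 12 were higher and 4 lower. Of 23 mitotic kinases and cyclins, 14 were higher and 8 lower. Of 15 genes of condensin and chromosome structure, 6 were higher and 8 lower, with Top2a at 495 ± 38.4 CPM in G2 and mitosis and 511 ± 70.5 in S phase (SD, n = 4 libraries). Among the genes lower in G2 and mitosis were Mybl2, an activator of late cell cycle genes, with a log2 fold change of -2.59, and Diaph3, a formin that nucleates actin, with -1.15. All 30 replication genes in the fit were lower, with a median log2 fold change of -2.01 against 0.00 over all genes. Ccne2, a cyclin of S phase entry, fell from 54.9 to 64.9 CPM to 2.54 to 6.09, and Cdc6, which loads the replicative helicase, from 27 to 30.6 to 1.76 to 3.72. Ung, which removes uracil from new DNA, had a log2 fold change of -3.02 and Slfn9 one of -2.86.

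**Figure D2:**
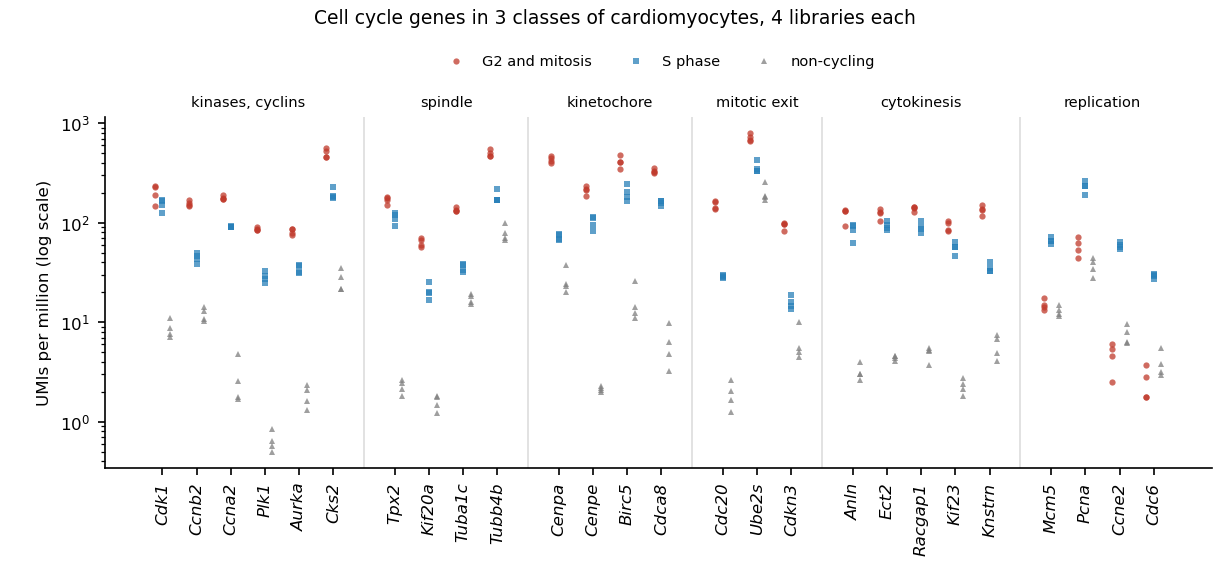
Level of 26 cell cycle genes (CPM, log scale on the y axis; genes on the x axis, grouped by role) in 3 classes of cardiomyocytes, with 1 symbol for each of 4 libraries. Cdc20, Cenpa and Cdkn3 separate G2 and mitosis from S phase, with Cenpa at 401 to 467 against 67.8 to 77.4, whereas Ccne2 and Cdc6 are low in both G2 and mitosis and non-cycling cells.

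Of 20 inhibitors and cyclins of G1, 3 were higher and 10 lower in G2 and mitosis than in S phase, and 7 did not pass, against 21.1% and 24.4% of all genes. Cdkn1b, which encodes the inhibitor p27, stood at 60.3, 52.6, 63.1 and 51.2 CPM in G2 and mitosis, at 34.3 to 37.0 in S phase and at 29.7 to 34.8 in non-cycling cells. It was thus highest in the cells about to divide in 4 of 4 libraries. Cdkn1a, which encodes p21, stood at 18.2 to 25 CPM, below the 33.8 to 48.6 of S phase and the 26.8 to 36.2 of non-cycling cells. Per cell, Cdkn1a gave 0.337 UMIs in G2 and mitosis and 0.333 in non-cycling cells. Ccnd2, a cyclin of G1, stood at 140, 159, 183 and 148 CPM in G2 and mitosis, 196 to 249 in S phase and 254 to 309 in non-cycling cells, in the same order in each library. Cdkn2c, which encodes the inhibitor p18, stood at 17.1 to 22.4 CPM in G2 and mitosis, 15.3 to 21.2 in S phase and 0.629 to 1.14 in non-cycling cells, with overlap between the 2 cycling phases. The pocket proteins Rb1 and Rbl1, which restrain E2F, had log2 fold changes of -0.85 and -1.43 against S phase.

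Against non-cycling cardiomyocytes, the cells in G2 and mitosis had lower relative levels of trabecular and maturation genes. The fit covered 14249 genes and called 3970 higher (27.9%) and 3810 lower (26.7%), and it too draws the contrast of the rule. Of 13 trabecular genes, 12 were lower and 1, Smpx, was higher, with a median log2 fold change of -0.84 against -0.01 over all genes. Nppa stood at 951 and 1230 CPM in controls against 874 and 1892 in Ets1 eKO cells in G2 and mitosis, and at 2424, 2436, 2676 and 4637 in non-cycling cells (log2 fold change -1.29 ± 0.06, SE). Bmp10, a ligand of the trabecular myocardium, was at 5.20 to 11.6 against 20.9 to 29.8, and Cpne5, a calcium-dependent membrane protein, at 4.12 to 13.1 against 31.8 to 47.8. The classes did not overlap in any library for these 3 genes, and Nppa was highest in Ets1 eKO replicate 2 in both classes. Among 8 genes of the compact zone, 2 were called, Tnnt1 and Igf1r, with log2 fold changes of 0.12 and 0.20, and Hey2, a repressor of the compact wall, did not pass the test (0.05 ± 0.04). Tnnt1 lost its call in 1 of 9 alternatives, with an adjusted p of 0.10.

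Sarcomere and calcium genes were lower in CPM by smaller amounts. Of 26 sarcomere genes, 21 were lower and 3 higher, with a median log2 fold change of -0.27. Myh6, the adult myosin heavy chain, had a log2 fold change of -0.67, Tcap, which caps titin at the Z disc, one of -0.68, and Csrp3, a Z disc protein, one of -0.53. Acta2, smooth muscle actin, an early gene of cardiomyocytes, was higher, at 1657, 1580, 1859 and 2263 against 1326, 1249, 1501 and 1611 CPM. Of 20 genes of calcium handling and maturation, 18 were lower and none was higher, among them the potassium channel Kcnj3 (-1.09), calsequestrin Casq2 (-0.62), the exchanger Slc8a1 (-0.40) and the ryanodine receptor Ryr2 (-0.33). Of 16 stress and immediate early genes, 12 were lower, with Fos at -0.55 and Atf3 at -0.77, whereas the chaperones Hsp90aa1 (0.66) and Hspa8 (0.35) were higher.

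The order changed where the same UMIs were counted per cell instead of in CPM, since a cell in G2 and mitosis held more UMIs. Here the classes were chosen on all UMIs, so that the call can follow depth. Chosen this way, their ratio of median UMIs had a mean of 1.38, against 1.35 on thinned counts. Over all 14249 genes, 74.6% were higher per cell in G2 and mitosis in 4 of 4 libraries and 4.25% were lower in all 4. Per cell, 19 of the 26 sarcomere genes (73.1%) were higher in G2 and mitosis in 4 of 4 libraries and 2 were lower in all 4. Myl2, the ventricular light chain, gave 171 UMIs per cell in G2 and mitosis against 131 in non-cycling cells, and Slc8a1 gave 76.7 against 72.1. The trabecular genes were lower on both scales, with 8 of 13 lower per cell in 4 of 4 libraries and 1 higher. Nppa gave 18.1 UMIs per cell against 30.5, Bmp10 0.134 against 0.265 and Ccnd2 2.42 against 2.97. Hsp90aa1 was higher on both, with 18.4 UMIs per cell against 8.18. Of 20 genes of calcium handling and maturation, 13 were higher per cell in all 4 libraries and 3 were lower. All 8 compact zone genes were higher per cell in 4 of 4 libraries. Of 16 stress and immediate early genes, 7 were higher in all 4 libraries, 0 lower and 9 mixed, with Fos at 1.22 UMIs per cell against 1.25 and Atf3 at 0.457 against 0.558.

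**Figure D3:**
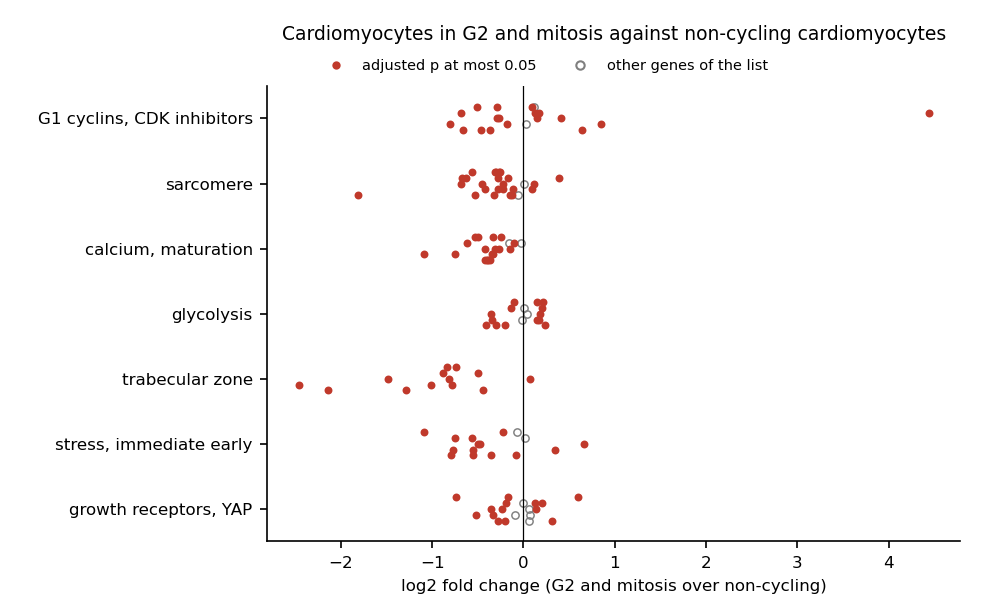
Log2 fold change in CPM of cardiomyocytes in G2 and mitosis over non-cycling cardiomyocytes (x axis) for the genes of 7 lists (y axis). Each point is 1 gene, filled where the adjusted p was at most 0.05, and the trabecular genes lie farthest below 0, with a median of -0.84.

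Genes beyond the lists were named for their large log2 fold changes, in both directions. Gal, which encodes the peptide galanin, stood at 0.444 to 0.976 CPM in G2 and mitosis and at 5.81 to 28.1 in non-cycling cells, a log2 fold change of -4.33 ± 0.15 (SE). Ntsr1, a neurotensin receptor, had one of -3.44. Sapcd2, which orients the spindle, rose from at most 0.425 CPM to 15.6 to 19.2. Markers of other cells moved with this contrast as well. Of 10 fibroblast genes, 8 were higher in G2 and mitosis (median log2 fold change 0.49), and their summed level was 138 to 224 CPM against 118 to 178. Of 6 erythroid genes, 5 were higher (median 1.03), with sums of 1698, 53.6, 1675 and 7464 CPM against 1122, 62.4, 1164 and 1822. The part of RNA from these cells in the differences was not tested.

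Within the cells in G2 and mitosis, 402, 192, 368 and 563 were compact-type and 172, 84, 100 and 254 trabecular-type. This comparison was made within libraries between cells chosen by the same rule. Mitotic genes outside the rule were tested, but the shared minimum of mitotic UMIs can hold their levels alike in both types. Most mitotic genes did not pass the test between the types, and neither did 8618 of all 10874 genes. The fit in edgeR over 10874 genes called 1101 higher in compact-type cells (10.1%) and 1155 lower (10.6%). Without the genes of the rule, 3 of 23 mitotic kinases and cyclins were higher and 1 lower, of 24 spindle genes 2 and 1, of 22 kinetochore and checkpoint genes 3 and 0, of 15 condensin and chromosome genes 3 and 0, of 13 genes of mitotic exit 1 and 1, and of 16 cytokinesis genes 1 and 0. The medians of these lists lay between -0.03 and 0.11, against 0.00 over all genes. Plk1 stood at 82.5, 102, 85 and 90.1 CPM in compact-type cells and 93.1, 86.3, 107 and 81.2 in trabecular-type cells (log2 fold change -0.06 ± 0.08, adjusted p = 0.70), with overlapping libraries. Mki67 differed by -0.05 ± 0.07 (adjusted p = 0.69).

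The mitotic genes that passed are described singly, since 10.1% of all genes were higher and 10.6% lower in the same fit. Mybl2 had the largest log2 fold change of its list, 1.06 ± 0.35 (adjusted p = 0.032), at low levels of 4.09 to 10.6 CPM against 0.659 to 4.85 that overlapped across libraries. Ccnb2, a B-type cyclin, stood at 174, 167, 189 and 173 CPM in compact-type and 143, 107, 162 and 138 in trabecular-type cells, with no overlap (0.33 ± 0.07, adjusted p = 0.0011). Hmgb2, a chromatin protein of dividing cells, was higher by 0.43 ± 0.06 (adjusted p = 8.2e-06) and Cenpp, a protein of the inner kinetochore, by 0.33 ± 0.07 (adjusted p = 0.00058). Wee1, the kinase that holds Cdk1 inactive, was at 48.0, 52.8, 39.9 and 51.8 against 36.5, 34.2, 34.6 and 32.3 (0.47 ± 0.10, adjusted p = 0.0019). Racgap1, of the contractile ring, was at 171, 164, 156 and 147 against 130, 144, 144 and 120 (0.24 ± 0.06, adjusted p = 0.0089). Kif20a, a kinesin of the midzone, was lower at 60.5, 69.4, 59.3 and 58.0 against 81.3, 83.0, 74.1 and 58.2 (-0.27 ± 0.08, adjusted p = 0.022). Kif20a lost the call in 4 of 7 alternatives (adjusted p up to 0.25), Mybl2 in 3 (up to 0.18), Racgap1 in 3 (up to 0.094) and Wee1 in 1 (0.053), and Ccnb2, Hmgb2 and Cenpp kept it in all 7.

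Some regulators of G1 also differed. Cdk6, partner of the D-type cyclins, stood at 121, 131, 111 and 95.6 CPM in compact-type and 65.9, 60.6, 68.7 and 55.6 in trabecular-type cells (0.84 ± 0.08, adjusted p = 2.2e-08), with no overlap. Ccng1 was also higher (0.49 ± 0.08, adjusted p = 6.9e-05). The cyclins Ccnd3 (-0.34 ± 0.06, adjusted p = 0.00018) and Ccnd1 (-0.50 ± 0.10, adjusted p = 0.0011), and the inhibitors Cdkn1a (-0.53 ± 0.13, adjusted p = 0.0057) and Cdkn1c (-0.26 ± 0.06, adjusted p = 0.0041), were lower in compact-type cells. Of 19 genes of this list tested, 2 were higher and 5 lower. Cdkn1a lost the call in 3 of 7 alternatives (adjusted p up to 0.093), Cdkn1c in 1 (0.077) and Ccnd1 in 1 (0.053), and Cdk6, Ccng1 and Ccnd3 kept it in all 7.

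Metabolic and contractile genes separated the types further. Of 17 glycolysis genes, 13 were higher in compact-type cells and 4 lower, with a median of 0.45. Pgk1 stood at 969, 1020, 1049 and 1277 CPM against 652, 489, 664 and 758 (0.74 ± 0.07, adjusted p = 1.5e-08). Hexokinase Hk2 (0.94 ± 0.11), triose phosphate isomerase Tpi1 (0.69 ± 0.06), the glucose transporter Slc2a1 (0.65 ± 0.08) and lactate dehydrogenase Ldha (0.58 ± 0.06) were higher as well. The isozymes Hk1 (-0.44 ± 0.07) and Ldhb (-0.41 ± 0.05) went the other way. All 6 had adjusted p values of at most 4.8e-05. Of 24 sarcomere genes, 13 were lower and 3 higher. Myl4, the fetal atrial light chain, stood at 2069, 2027, 2147 and 2627 against 5034, 5671, 4101 and 6644 (-1.28 ± 0.06, adjusted p = 4.6e-13). Acta2 was higher by 0.77 ± 0.07. Of 20 genes of calcium handling and maturation, 12 were lower, among them Casq2 (-1.43 ± 0.08) and Kcnj3 (-1.60 ± 0.12), and 1 was higher.

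Genes of the zones followed the genes that split the cells and are given as a description. Bmp10 was at 0.852 to 2.77 CPM in compact-type and 29.4 to 58.6 in trabecular-type cells, and Hey2 at 63.9 to 77.3 against 19.8 to 49.9. Slit2, a secreted guidance ligand, was at 21.5 to 53.2 against 424 to 1344, and Myl1 at 8.86 to 20.0 against 90.6 to 192. Chn2, a Rac GTPase-activating protein, was at 58.9 to 102 against 1.28 to 6.68, and Adgrb3, an adhesion receptor, at 42.4 to 61.4 against 0.960 to 8.08. Erythroid genes tested in this fit had a median of 1.27 in favour of compact-type cells, and 2 of 5 were called. The part of erythroid RNA in these differences was not tested.

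**Figure D4:**
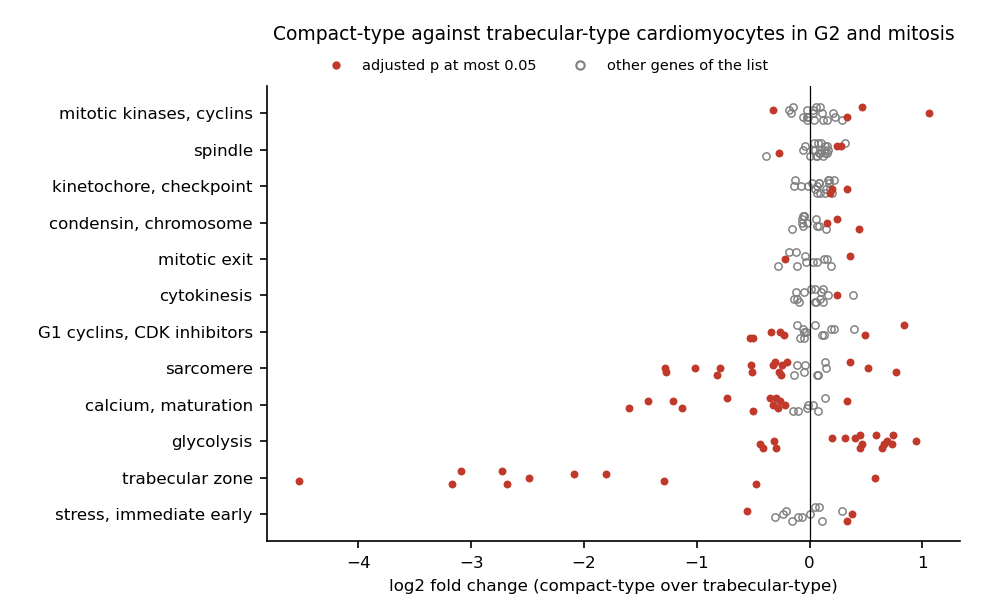
Log2 fold change of compact-type over trabecular-type cardiomyocytes in G2 and mitosis (x axis) for the genes of 12 lists (y axis), without those of the rule. Each point is 1 gene, filled where the adjusted p was at most 0.05, and most genes of the mitotic lists lie near 0, apart from Mybl2 at 1.06, while glycolysis genes have a median of 0.45 and trabecular genes one of -2.49.

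Compared to dividing cells of other types in the same libraries, the cardiomyocytes had lower levels of most genes of 5 of the 6 mitotic lists, and over all genes the levels also leaned this way, with a median log2 difference of 0.22 towards other types. Without the genes of the rule, 22 of 24 spindle genes were lower in cardiomyocytes in 4 of 4 libraries, as were 19 of 23 mitotic kinases and cyclins, 14 of 22 kinetochore and checkpoint genes, 13 of 15 condensin and chromosome genes and 11 of 16 cytokinesis genes, against 49.8% of 14076 genes. Of 13 genes of mitotic exit, 6 were lower in 4 of 4 libraries (46.2%), below that share. The genes named here are examples chosen after their values were seen, given as a description over 4 libraries. Aurkb, the kinase of the chromosomal passenger complex, stood at 36.7 ± 5.62 CPM in cardiomyocytes and 94.9 ± 8.47 in other types (SD, n = 4), and its partner Incenp at 73.6 ± 4.95 and 171.5 ± 15.2. Prc1, which bundles midzone microtubules, was at 327 ± 41.1 and 571 ± 75.2, Kif23 at 93.2 ± 10.7 and 183 ± 24.6, and Diaph3 at 109.8 ± 8.51 and 254 ± 30.5. Each was lower in cardiomyocytes in 4 of 4 libraries. Anln stood at 123 ± 20.0 and 127 ± 14.9 and Knstrn at 136 ± 13.6 and 130 ± 13.5, close in both. Ccna2 and Cenpm were higher in cardiomyocytes in 4 of 4 libraries, with Cenpm at 98.1 ± 8.2 against 49.1 ± 8.47. Other types were not split further, and their median depth, 7329 to 12337 UMIs, was below that of the cardiomyocytes. Both groups were chosen by the same minimum of 5 UMIs, which a deeper cell can reach at a lower level in CPM. The part of this choice in the lower levels was not tested.

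Cells of both genotypes were chosen by the same minimum of mitotic UMIs. That choice can hold genes that rise with these markers at like levels, so the fit cannot show that they were unchanged. In simulated data of this size, 9 of 100 changes of 0.5 log2 units were recovered. Within these limits, none of 112 mitotic genes passed the adjusted threshold between genotypes. This held in 11 of 13 alternatives. The 2 exceptions were fits with a single Ets1 eKO library, in which calls over all genes rose as well, as given below. No reading is drawn from the mitotic calls of these fits. Over the 13 alternatives, the log2 fold change ran from -0.572 to -0.212 for Spag5, from 0.189 to 0.538 for Fbxo5 and from 0.169 to 0.338 for Aurka. Of 14076 genes tested with edgeR (quasi-likelihood, Benjamini-Hochberg), none passed an adjusted p of 0.05 (0%). The unadjusted p was under 0.05 for 1514 genes (10.8%), and 5 genes were called by DESeq2. Ccnb2 was at 158 and 147 CPM in controls against 171 and 152 in Ets1 eKO cells (log2 fold change 0.21 ± 0.14, adjusted p = 0.53) and Kif23 at 99.5 and 105 against 85.4 and 82.9 (-0.14 ± 0.12, adjusted p = 0.62). Cdc20, at 162 and 142 against 138 and 165, had a log2 fold change of 0.13 ± 0.16 (adjusted p = 0.73), which changed sign under scaling by total counts (-0.00293) and without Ets1 eKO replicate 2 (-0.0376). Of 23 mitotic kinases and cyclins, 2 had an unadjusted p under 0.05, Aurka higher (0.30 ± 0.12) and Ttk lower (-0.30 ± 0.13). In the same way, 2 of 13 genes of mitotic exit were higher, and 1 of 24 spindle genes and 1 of 16 cytokinesis genes were lower. No kinetochore or condensin gene had an unadjusted p under 0.05, against 5.12% of all genes higher and 5.64% lower. The list medians were 0.05 for kinases and cyclins, 0.02 for spindle genes, 0.15 for kinetochore genes, 0.04 for condensin and chromosome genes, 0.25 for mitotic exit and 0.00 for cytokinesis, against 0.01 over all genes. Scaling by total counts moved that overall median to -0.13.

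The count of calls depended on single libraries. With control replicate 1 or 2 left out it was 22 or 24, and with Ets1 eKO replicate 1 or 2 left out it was 2350 or 446, where the library left alone in its group is assumed to vary like the other group. Sex-linked RNA moved with the same libraries, with Uty at 60.8 and 30.9 CPM in controls against 19.5 and 0 in Ets1 eKO cells, and so did erythroid RNA, with Hbb-y, an embryonic globin, at 48.4 and 7.32 against 278 and 1535 (log2 fold change 5.13 ± 0.94, adjusted p = 0.41). Over 13 alternatives, the log2 fold change of Hbb-y ran from 3.34 to 7.13. Of 7 immune genes 4, of 6 erythroid genes 4, and of 6 epicardial genes 3, had an unadjusted p under 0.05 with higher levels in Ets1 eKO. This compares with 5.12% of all genes. Of 11 endothelial genes tested 1 was higher in this way, and none of 10 fibroblast genes had an unadjusted p under 0.05 (median log2 fold change -0.10). The part of sex and of other cells' RNA in the differences was not tested.

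Among replication genes, 29 of 30 had a log2 fold change above 0 and 7 had an unadjusted p under 0.05, all higher in Ets1 eKO. Over all 14076 genes tested, 51.0% had a log2 fold change above 0, 5.12% were higher with an unadjusted p under 0.05 and 5.64% were lower. Cdc6 stood at 1.79 and 1.76 CPM in controls against 2.79 and 3.72 in Ets1 eKO cells (1.01 ± 0.29, adjusted p = 0.46), Ccne2 at 4.53 and 2.54 against 6.09 and 5.36 (0.75 ± 0.28, adjusted p = 0.46) and Rpa2 at 24.0 and 26.6 against 27.7 and 36.6 (0.49 ± 0.17, adjusted p = 0.46). The groups did not overlap for these 3 genes, and none passed the adjusted threshold in the main fit. Over 13 alternatives, the log2 fold change ran from 0.742 to 1.30 for Cdc6, from 0.203 to 1.32 for Ccne2 and from 0.239 to 0.710 for Rpa2.

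Of 19 genes of growth receptors and the YAP pathway, 4 had an unadjusted p under 0.05, all lower in Ets1 eKO, against 5.64% of all genes lower in this way. The growth factor receptor Igf1r stood at 334 and 395 against 266 and 235 CPM (-0.41 ± 0.16). The YAP paralogue Wwtr1 stood at 73.4 and 72.8 against 52.7 and 51.2 (-0.36 ± 0.12). The YAP target Ccn1 was at 19.7 and 16.2 against 9.39 and 10.7 (-0.71 ± 0.17). Each of these genes had an adjusted p of 0.46 in the edgeR fit. Of 16 stress and immediate early genes, 7 had a log2 fold change above 0 (median -0.10), and at an unadjusted p under 0.05 4 were lower (Egr1, Fosb, Hspa1a and Hspa1b) and 2 higher (Jund, 0.42 ± 0.17, and Ier3, 0.39 ± 0.17). Egr1 was at 146 and 127 against 79.3 and 90.1 (-0.56 ± 0.15) and Fosb at 18.1 and 14 against 7.55 and 9.96 (-0.75 ± 0.21). Btg2, an antiproliferative gene, was at 56.0 and 44.4 against 29.9 and 30.7 (-0.60 ± 0.15), and it was the 1 of 20 G1 cyclins and inhibitors with an unadjusted p under 0.05, in a list with 11 genes above 0 and a median of 0.09. Hspa1b, a heat shock protein, was at 5.20 and 2.73 against 0.761 and 0.766 (-2.30 ± 0.39, adjusted p = 0.34). The groups did not overlap for Igf1r, Wwtr1, Ccn1, Egr1, Fosb, Btg2 or Hspa1b, and none passed the adjusted threshold.

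At an unadjusted p under 0.05, 2 of 26 sarcomere genes were higher in Ets1 eKO, 1 of 20 calcium and maturation genes was lower, 1 of 13 trabecular genes was higher and 2 were lower, and 1 of 8 compact zone genes was higher and 1 lower, against 5.12% of all genes higher and 5.64% lower. Tnnt1 was at 1021 and 1071 against 1512 and 1195 CPM (0.50 ± 0.18) and the calcium channel Cacna1c at 1830 and 1897 against 1396 and 1107 (-0.44 ± 0.18), each with an adjusted p of 0.46. Nppa, at 951 and 1230 against 874 and 1892, overlapped between the groups. Of 17 glycolysis genes, 16 had a log2 fold change above 0 and 1, Pgam1, had an unadjusted p under 0.05 (581 and 553 against 627 and 863), against 51.0% and 10.8% of all genes.

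The genes nearest to the threshold belonged to no list and were chosen after their values were seen. Sorcs2, a sorting receptor, stood at 58.9 and 65.6 CPM in controls against 24.4 and 17.5 in Ets1 eKO cells in G2 and mitosis (-1.44 ± 0.16, adjusted p = 0.056), and at 53.3 and 54.8 against 19.5 and 16.6 in non-cycling cardiomyocytes. Gramd1b was at 68.6 and 72.6 against 36.1 and 37.2 (-0.81 ± 0.12, adjusted p = 0.27) and Kctd16 at 60.9 and 63.2 against 33.8 and 28.1 (-0.87 ± 0.13, adjusted p = 0.27). Tnni2, the fast skeletal troponin I, was at 51.6 and 38.5 against 88.1 and 127 (1.38 ± 0.21, adjusted p = 0.27). With Rgs6, these were the 5 genes that DESeq2 called. Sorcs2 passed the threshold in 11 of 13 alternatives of the fit. The change in Ets1 eKO was compared between G2 and mitosis and non-cycling cardiomyocytes by an interaction term over 14903 genes, and 2 genes passed an adjusted p of 0.05 (0.0134%), both globins. For Sorcs2, the difference of the change was 0.05 (adjusted p = 0.97). With control replicate 1 or 2 left out there were 60 or 26 such genes, and with Ets1 eKO replicate 1 or 2 left out 155 or 68.

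**Figure D5:**
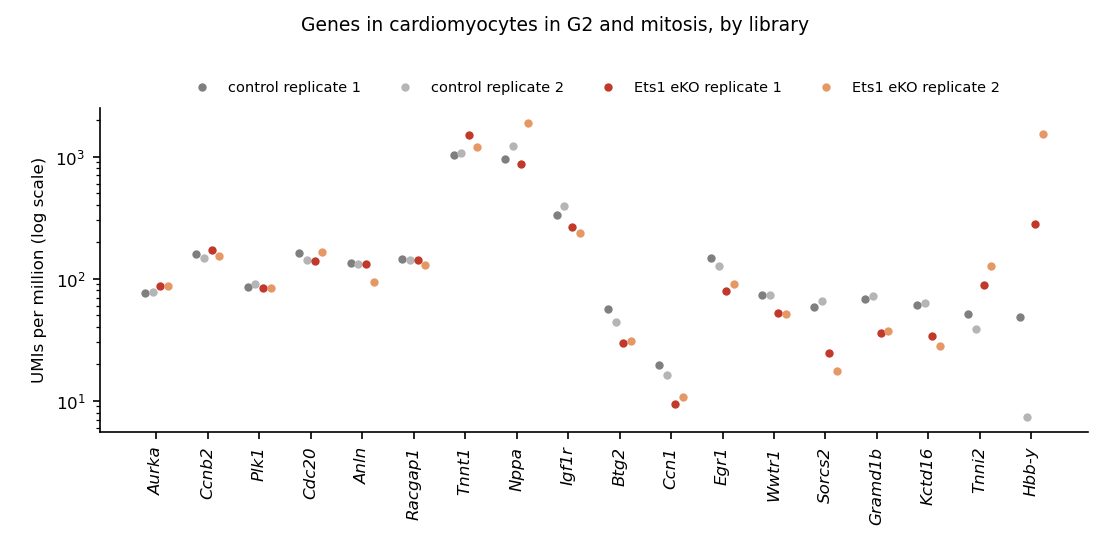
Level of 18 genes in cardiomyocytes in G2 and mitosis (CPM, log scale on the y axis; genes on the x axis), with 1 point for each of 2 control and 2 Ets1 eKO libraries. Ccnb2 (147 to 171) overlaps between the groups, Sorcs2 separates the 2 controls (58.9 and 65.6) from the 2 Ets1 eKO libraries (24.4 and 17.5), and Hbb-y is highest in Ets1 eKO replicate 2.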

How the data were processed

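Single-cell RNA-seq of E14.5 ventricles was measured in 2 control and 2 Ets1 eKO libraries of 3 pooled embryos each. The deposited values are raw UMI counts per gene and barcode, which the authors made with Cell Ranger 7.1.0 (submitters' processing notes) against mm10. The deposited matrices are filtered barcodes without cell names, so cells were called here by rule. Sums of 1335, 608, 968 and 1617 cells (22304386, 10248778, 15759758 and 18270036 UMIs) set the precision.

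UMI counts of each class were added up within a library. They were fitted in R 4.3.3 by edgeR 4.0.16 (filterByExpr, TMM, glmQLFit), p-values were adjusted over all genes tested (Benjamini-Hochberg), and the threshold was 0.05. Classes were compared with library as a block and genotypes without one. DESeq2 1.42.0, scaling by total counts, no filter on low counts, thinning to 2000, 4000 or 8000 UMIs, other marker minimums, removal of the barcodes with the highest simulated-doublet scores (9.81% to 14.2% of the chosen cells and 5.74% to 9.44% of cardiomyocytes) and leaving out each library were tried. No doublets were removed in the main analysis. Shares used exact binomial intervals and exact permutation tests. In simulated data with the sizes of the genotype comparison (14149 genes), 67 of 97 changes of 1 log2 unit were recovered. Of 100 changes of 0.5, 9 were recovered, and there were 16 false calls, a larger share of the calls than the threshold of 0.05. The simulation drew each gene on its own, without effects that many genes of a library share, so these counts may not hold for the real data. Levels in CPM are compared between samples or classes and not between genes. The UMIs of the 4 mitotic genes of the rule are set against each other as a description.

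Genes named are the members of the fixed lists and, in each comparison, the 5 largest changes in each direction with no overlap between groups or libraries, and others are marked. The members and lists were chosen with earlier results of these data known. Nothing but the pooling of embryos describes the 2 libraries of a group, so p-values measure the spread between these libraries. Replicate numbers were not used to pair the libraries in the main fit. The deviations of replicate 1 of both groups from their group means correlated at -0.133 over 12181 genes. With 2 libraries per group, this value cannot show whether libraries were prepared in pairs. Aldoa and Ddit3 were left out, as each symbol has more than 1 gene ID.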

Additional observations from a re-analysis of the deposited data

Results flagged for a closer look

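In 2 genes, the change in Ets1 eKO differed between cardiomyocytes in G2 and mitosis and non-cycling cardiomyocytes by the interaction term of edgeR's quasi-likelihood test. Hba-x, an embryonic globin, had a difference of 2.97 on the log2 scale (adjusted p = 0.00011), from 9.77 and 1.17 CPM in controls against 25.8 and 226 in Ets1 eKO cells in G2 and mitosis, and from 23.7 and 1.64 against 11.9 and 62.5 in non-cycling cells. Without control replicate 1, the difference for Hba-x was 2.19 and did not pass the threshold (adjusted p = 0.078). Hbb-y had a difference of 3.29 (adjusted p = 0.0023), from 48.4 and 7.32 against 278 and 1535 and from 220 and 12.7 against 180.5 and 456. It was 2.04 without control replicate 1, and 2.04 to 3.896 over 6 alternatives. The part of RNA from erythroid cells in these differences was not tested.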

How the results depend on the processing

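Of 100 comparisons of a main result with an alternative, 80 kept the direction or stayed within 1.5 times the count. The genotype count of 0 became 5 with DESeq2, 6 with total count scaling, 128 with no filter on low counts, 3 with cells thinned before summing, 1 with doublet scores removed and 22 to 2350 with 1 library left out. A replicate block gave 65 calls, and the crossed pairing, added after seeing the data, gave 575. The cause was not tested. The count against S phase, 6221, became 3506 with DESeq2 and 3683 with thinned cells. The count between zone types, 2256, became 1178 with DESeq2. The interaction count of 2 became 131 with no filter and 26 to 155 with 1 library left out. The trabecular-type share difference became -1.855 points without thinning. Cdc20 between genotypes became -0.00293 with total count scaling and -0.0376 to 0.2883 with 1 library left out, the lowest without Ets1 eKO replicate 2. Other values that passed no threshold also changed sign. Hey2 against non-cycling cells became -0.0517 with thinned cells. With 1 library left out, the interaction value of Sorcs2 ran from -0.0558 to 0.164, and between zone types Mki67 ran from -0.0994 to 0.0113 and Plk1 from -0.128 to 0.0273. The compact-type minus trabecular-type share was added after seeing the data and stayed above 0 in every setting run, at 3.54 to 6.89 points. The genotype comparison had 2 libraries per group, and its shallowest sum held 10248778 UMIs, in control replicate 2.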
